A study of Mus musculus with 6 samples.

Results

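The genes described here make or remove reactive oxygen and nitrogen species at the gut surface, or add fucose to the sugars that cover it. They are Nos2, Duox2, Duoxa2, Noxa1, Noxo1, Cyba, Sod2 and Fut2, and they were found by symbol, or by an older alias, among the probes of a Phalanx Mouse OneArray. All 8 were present, on 9 of the 26423 probes, and all 8 were among the 12196 genes that were above background in at least 1 sample and were tested. The arrays carried Cy5-labelled RNA from the ileum of C57BL/6J mice, the only strain used. Germ-free mice, kept in isolators, gave 2 preweaned samples and 1 postweaned sample. Conventional mice, called SPF in the sample titles and kept specific pathogen free, gave 1 preweaned and 1 postweaned sample. A humanized gnotobiotic mouse, preweaned, gave 1 sample. The labels do not say what the humanized community held, which sex the mice had or whether RNA of several animals was pooled. The design text gives 3 weeks as the age of the gnotobiotic mouse and of germ-free mice set beside it, and no other ages. The question put by the design is how ileal expression differs with weaning and with the presence of microbes.

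Inducible nitric oxide synthase, the product of Nos2, makes nitric oxide from arginine and is induced by microbial products and cytokines in macrophages and in intestinal epithelium. The dual oxidase DUOX2 releases hydrogen peroxide at the apical surface of epithelial cells and needs its maturation factor, encoded by Duoxa2, to reach that surface. The epithelial oxidase NOX1 works in a complex with an organizer (Noxo1), an activator (Noxa1) and the p22phox subunit (Cyba), which it shares with the phagocyte oxidase. Manganese superoxide dismutase, from Sod2, turns superoxide into hydrogen peroxide in mitochondria. The fucosyltransferase from Fut2 puts terminal fucose on epithelial glycans and mucus, which gut bacteria can use as food.

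Duox2 and Duoxa2 lie head to head, so the DNA between them faces both starts. It is shown because these 2 genes had their highest level in the same sample and similar levels in the others, as given further on. The run covers the bases between the outermost RefSeq ends of the pair, chr2:122298741-122298899 in GRCm38.p6, plus strand, read 5′ to 3′ toward Duoxa2 with Duox2 on the other strand to the left.
Duox2-Duoxa2: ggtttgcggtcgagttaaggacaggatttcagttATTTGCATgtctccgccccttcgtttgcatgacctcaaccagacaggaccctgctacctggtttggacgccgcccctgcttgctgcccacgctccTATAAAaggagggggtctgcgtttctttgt
The capitals mark an octamer, ATTTGCAT, at -125 to -118 and a TATA box, TATAAA, at -30 to -25, counted from the Duoxa2 start. Both were chosen after the sequence had been read. On either strand, 7.95% of 32851 RefSeq promoter windows of the same length held TATAAA and 1.05% held ATTTGCAT, with no overlap of the marked motifs here. A STAT motif (TTCNNNGAA, in 4.33% of windows), an NF-kB motif (0.237%), an interferon-stimulated response element (1.71%) and CCAAT (25.4%) had 0 matches in these letters on either strand. A match is a description of the letters and not of binding.

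Each sample was hybridized to 3 arrays, except that the file of germ-free preweaned sample 1 holds 6, for 21 arrays in all, of which 0 pairs held identical values. Arrays of a sample were averaged, and their number limits the precision of each level. Between 29.8% and 50.3% of probes were detected per array, and between 7465 and 11109 of the tested genes were above background per sample, most in SPF postweaned. The median raw intensity was highest in SPF preweaned, at 80 to 111, and lowest in germ-free preweaned sample 2, at 30 to 40. The germ-free preweaned samples stood apart from each other: 2342 genes, 19.2%, differed by 2-fold or more between them, and the summed level of 8 suckling enterocyte markers was 205705 in sample 1 and 22379 in sample 2. The first and the last 3 arrays of sample 1 differed in Y-linked genes, with Ddx3y at 9.63 and 6.01 and Uty at 9.34 and 5.79 (log2 levels), and correlated at 0.98 across genes, against 0.88 for the pair of samples. No label says whether these arrays carried RNA of the same mice. The SD over arrays of sample 1 thus takes in the difference between its first and last 3 arrays. Cyba, for one, was 10.69 on the first 3 and 10.37 on the last 3. Over the samples the Ddx3y level ran with weaning: it was 9.17 in SPF preweaned, 9.52 in the humanized sample and 9.84 in germ-free preweaned sample 2, against 5.91 in SPF postweaned and 6.51 in germ-free postweaned, with 7.82 as the mean of germ-free preweaned sample 1. The samples also fell into 2 groups, called array sets here, although no label explains the division and its source was not tested. In all, 69 probes were on in both germ-free preweaned samples and the humanized sample and off in the other 3, or the reverse. Under any other 3 against 3 division, 0 probes did so. Levels of 36.6% of genes did not overlap between these array sets. Duox2, Duoxa2 and Noxo1 are among them and the other 5 genes are not.

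**Figure D1:**
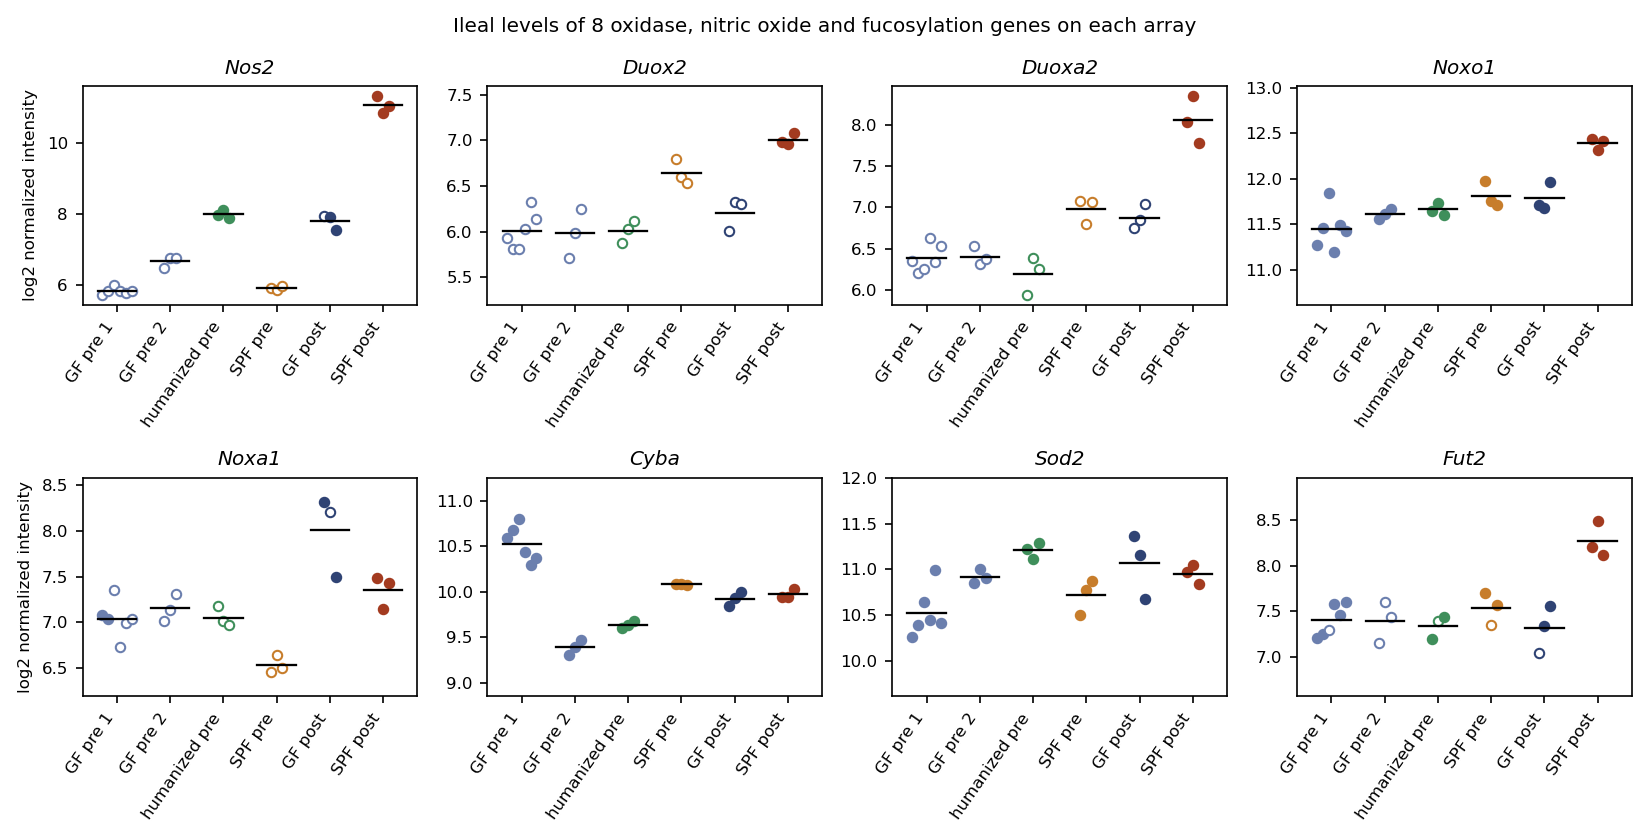
Level of each of the 8 genes (log2 normalized intensity) in 6 samples, one panel per gene, with the points for single arrays and the bar for the sample mean. Filled points mark arrays on which the probe was detected and open points those on which it was not; the Nos2 means span 5.84 to 11.06, the widest range of the 8.

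Nos2 had the widest range of the 8 genes and was highest in the SPF postweaned sample. Its level, given throughout as log2 of the quantile-normalized intensity plus an offset of 50, was 11.06 ± 0.24 in SPF postweaned (SD over arrays, n = 3). It was 8.00 ± 0.11 in the humanized preweaned sample and 7.80 ± 0.22 in germ-free postweaned. It was 6.67 ± 0.16 and 5.84 ± 0.098 in the germ-free preweaned samples 2 and 1, and 5.92 ± 0.051 in SPF preweaned. The probe was detected on all 3 arrays of SPF postweaned and of the humanized sample, on 2 of 3 of germ-free postweaned, and on 0 of the 12 preweaned germ-free and SPF arrays. The raw intensities, before normalization, lay between 1720 and 2547 on the SPF postweaned arrays, between 179 and 196 on the humanized arrays, between 106 and 138 on the germ-free postweaned arrays, and at or below 42 on the arrays of the other 3 samples. Only 1.12% of genes had a wider range over the 6 samples than the 5.22 log2 units of Nos2. The humanized and germ-free postweaned levels differed by 0.19, less than the 0.83 between the germ-free preweaned samples, and their arrays overlapped. SPF preweaned and the germ-free preweaned mean differed by 0.33, again less than that gap. In bulk RNA, more cells that express a gene and more of its RNA per cell cannot be told apart.

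After weaning, SPF minus germ-free was 3.26 ± 0.64 for Nos2 (log2 difference ± SE), a 9.56-fold difference, and weaning in SPF mice, postweaned minus preweaned, was 5.14 ± 0.64. Because no SPF preweaned array detected the probe, the latter is at least 12.6-fold: such bounds use the lowest detected signal on each array of the dim group or the probe's own, whichever is higher. Weaning in germ-free mice gave 1.55 ± 0.56, at least 1.13-fold. Ddx3y, on the Y chromosome, was 9.17 in SPF preweaned and 5.91 in SPF postweaned, so a difference in sex and weaning cannot be told apart in the SPF pair. The humanized sample was 1.74 ± 0.56 above the germ-free preweaned samples, at least 1.29-fold, and 2.07 ± 0.64 above SPF preweaned, at least 1.51-fold. Suckling enterocyte markers summed to 21882 in the humanized sample and 161496 in SPF preweaned, and their part in this difference was not tested. Before weaning, SPF minus germ-free was -0.33 ± 0.56, with neither group above background. The difference between the weaning differences of SPF and germ-free mice was 3.59 ± 0.85. In limma's fit over all genes the adjusted p was 0.9998 for the SPF and germ-free postweaned difference, 0.944 for weaning in SPF and 0.761 for the difference between the weaning differences, so none passed. The unadjusted p for these was 0.011, 0.0026 and 0.019, and the spread in this fit rests on the germ-free preweaned pair, with 1 residual degree of freedom.

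Markers of T and NK cells were also highest in SPF postweaned. The summed level of their 8 tested genes of 10 listed (summed linear intensity) was 64230 in SPF postweaned, 5455 in the humanized sample, 5267 in germ-free postweaned, 3406 and 659 in germ-free preweaned samples 2 and 1, and 881 in SPF preweaned. This is the order of the 6 samples by Nos2, and of the 8 marker lists compared in this way only this 1 had that order. In most samples the sum is carried by Gzma and Gzmb. In SPF preweaned it is carried by Cd3e, at 9.38, against 7.40 for Gzma and 6.09 for Gzmb. The place of SPF preweaned above germ-free preweaned sample 1 in that order rests on Cd3e. By themselves 0 of the 8 markers had that order. Cd3e, for one, was 9.38 in SPF preweaned and 8.19 in the humanized sample. Gzmb was 9.45 in germ-free preweaned sample 2 and 9.18 in germ-free postweaned. All 8 were highest in SPF postweaned, and the share of all genes highest there was not counted. Of the 12196 genes, 10 others, 0.0820%, had the samples in that order, a share of single genes and no background for a sum. The order by Nos2 is itself uncertain in part. Nos2 was above background in 3 of the 6 samples, and its humanized and germ-free postweaned levels differed by 0.19 with overlapping arrays. In SPF postweaned all 8 of these T and NK cell markers were above background, as were 11109 of all 12196 genes. Cd3d, Cd3g, Cd8a, Gzmb, Klrd1 and Nkg7 were not in SPF preweaned or germ-free preweaned sample 1. There 9113 and 8831 of all genes were above background.

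Macrophages are a textbook source of Nos2, and most of their markers were highest in the humanized sample. The 9 tested of 11 listed summed to 10524 and 4473 in germ-free preweaned samples 1 and 2, 7164 in the humanized sample, 2279 in SPF preweaned, 1962 in SPF postweaned and 643 in germ-free postweaned. The sum in germ-free preweaned sample 1 was carried by Csf1r, at 12.85 there and 9.29 in the humanized sample, whereas 7 of the 9, C1qa, C1qb, C1qc, Cd14, Mrc1, Itgam and Adgre1, were highest in the humanized sample. Adgre1, the F4/80 antigen, was above background only in the humanized sample. Levels of C1qa, C1qb, Mrc1 and Adgre1 did not overlap between the array sets, whereas those of C1qc, Cd14 and Itgam did. Neutrophil markers, 3 of 10 tested, summed to between 226 and 887, highest in SPF postweaned. The part of these cells in the Nos2 levels was not tested.

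**Figure D2:**
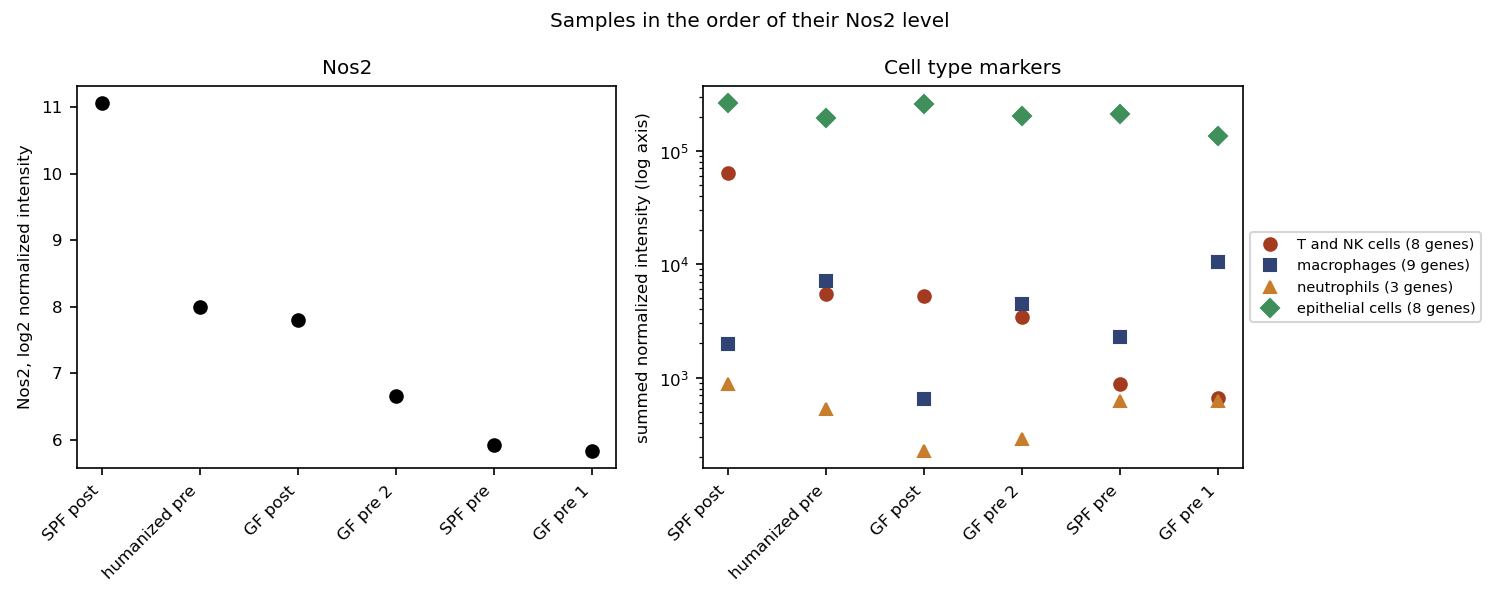
Nos2 level (left, log2 normalized intensity) and summed level of the tested T and NK cell, macrophage, neutrophil and epithelial markers (right, summed normalized intensity on a logarithmic axis), one point per sample, with the 6 samples in falling order of Nos2 on the horizontal axis of both panels. T and NK cell markers run from 64230 to 659 in the same order, and the macrophage sum is highest, at 10524, in germ-free preweaned sample 1, where Csf1r carries it.

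The dual oxidase pair was near background in most samples. Duox2 was detected on 3 of 21 arrays, all 3 of SPF postweaned, where its level was 7.01 ± 0.065. It was 6.64 ± 0.14 in SPF preweaned, 6.21 ± 0.18 in germ-free postweaned, 6.00 ± 0.12 in the humanized sample, and 6.00 ± 0.20 and 5.98 ± 0.27 in germ-free preweaned samples 1 and 2. The lowest detected signal, averaged over a sample's arrays, was 6.75 in SPF postweaned and 7.26 to 7.96 in the other samples. A level of 7.01 would thus lie below the lowest detected signal of every other sample, so detection of Duox2 in SPF postweaned alone does not separate it from them. SPF postweaned stood above all other arrays, while raw intensities in SPF preweaned, 68 to 110 and not detected, overlapped the 95 to 106 of SPF postweaned. SPF preweaned was the sample with the highest raw median, and after normalization the 2 samples did not overlap.

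Duoxa2 was also detected on 3 of 21 arrays, those of SPF postweaned, at 8.05 ± 0.29. It was 6.98 ± 0.16 in SPF preweaned, 6.88 ± 0.15 in germ-free postweaned, 6.41 ± 0.11 and 6.39 ± 0.17 in germ-free preweaned samples 2 and 1, and 6.20 ± 0.23 in the humanized sample. The arrays of SPF postweaned lay between 7.77 and 8.35, above every other array, and those of SPF preweaned and germ-free postweaned overlapped. SPF minus germ-free after weaning was 1.18 ± 0.46 for Duoxa2, at least 1.44-fold, and 0.80 ± 0.46 for Duox2. Weaning in SPF mice gave 1.07 ± 0.46 for Duoxa2, at least 1.57-fold, and 0.37 ± 0.46 for Duox2. For Duox2 the bound was below 1, and no fold is given. Over the 6 samples the levels of the pair correlated with r = 0.95, a description only, since neither gene overlaps between the array sets and the samples differ in depth. In the humanized sample neither gene was above background, and neither was Duoxa1 or Duox1 on any of the 21 arrays.

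Of the NOX1 partners, the organizer Noxo1 was bright on all 21 arrays. It stood at 12.39 ± 0.063 in SPF postweaned, 11.81 ± 0.14 in SPF preweaned, 11.79 ± 0.16 in germ-free postweaned, 11.66 ± 0.066 in the humanized sample, and 11.61 ± 0.055 and 11.45 ± 0.22 in germ-free preweaned samples 2 and 1. The lowest SPF postweaned array, 12.32, was above every other array, and each lower pair of neighbours overlapped and differed by no more than the 0.17 between the germ-free preweaned samples. SPF minus germ-free after weaning was 0.61 ± 0.46, and weaning in SPF was 0.58 ± 0.46. The adjusted p was 0.9998 and 0.953 (limma). The difference after weaning was 0.19 with 75th percentile scaling and 0.99 from the authors' deposited value table, which is not scaled between samples.

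The activator Noxa1 had its highest level elsewhere, in germ-free postweaned at 8.01 ± 0.45, where 2 of 3 arrays detected it. It was 7.35 ± 0.19 and detected on 3 of 3 arrays in SPF postweaned. The preweaned levels were 7.15 ± 0.15 and 7.03 ± 0.20 in germ-free samples 2 and 1, 7.05 ± 0.11 in the humanized sample and 6.53 ± 0.093 in SPF. Only 2 of these 15 preweaned arrays detected it, both of germ-free sample 1. Postweaned minus preweaned was 0.91 ± 0.40 in germ-free and 0.82 ± 0.46 in SPF mice, and SPF minus germ-free was -0.66 ± 0.46 after weaning and -0.56 ± 0.40 before, the latter 0.13 from the authors' deposited value table. No adjusted p of Noxa1 was below 0.511 in these fits.

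Cyba, which encodes p22phox, varied most between samples of a single group. Its levels in the germ-free preweaned samples 1 and 2 were 10.53 ± 0.19 and 9.39 ± 0.080, the highest and the lowest of the 6. The other samples lay between them, at 10.08 ± 0.0072 in SPF preweaned, 9.97 ± 0.052 in SPF postweaned, 9.93 ± 0.078 in germ-free postweaned and 9.64 ± 0.042 in the humanized sample. Every difference between groups, -0.44 to 0.12, was below the 1.14 between that pair. Of the core oxidases, Nox1, Nox3 and Cybb, the phagocyte oxidase, were detected on 0 of 21 arrays. Nox4 was above background in both germ-free preweaned samples, SPF preweaned and the humanized sample.

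Sod2 had the narrowest range of the 8 genes, 0.69, and 88.7% of genes had a wider one. One of its 2 probes was detected on 0 of 21 arrays and was not used, and the other was detected on all 21. The level was 11.21 ± 0.089 in the humanized sample, 11.07 ± 0.35 in germ-free postweaned, 10.95 ± 0.11 in SPF postweaned, 10.92 ± 0.076 and 10.52 ± 0.26 in germ-free preweaned samples 2 and 1, and 10.72 ± 0.19 in SPF preweaned. All neighbouring groups in this order overlapped and differed by less than the 0.40 between the germ-free preweaned samples. The largest differences were those of the humanized sample, 0.49 ± 0.44 over germ-free preweaned and 0.49 ± 0.50 over SPF preweaned, the latter -0.09 from the authors' deposited value table.

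Fut2 was highest in SPF postweaned, at 8.27 ± 0.20 and detected on 3 of 3 arrays. It was 7.54 ± 0.18 in SPF preweaned, 7.40 ± 0.17 and 7.40 ± 0.22 in germ-free preweaned samples 1 and 2, 7.34 ± 0.13 in the humanized sample and 7.32 ± 0.26 in germ-free postweaned. The SPF postweaned arrays, 8.12 to 8.49, lay above all others, and the remaining groups overlapped with their neighbours. SPF minus germ-free was 0.96 ± 0.46 after weaning, a 1.94-fold difference, and 0.14 ± 0.39 before. Weaning gave 0.73 ± 0.46 in SPF and -0.08 ± 0.39 in germ-free mice, and the difference between these was 0.81 ± 0.60, with an adjusted p of 0.791 (limma).

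**Figure D3:**
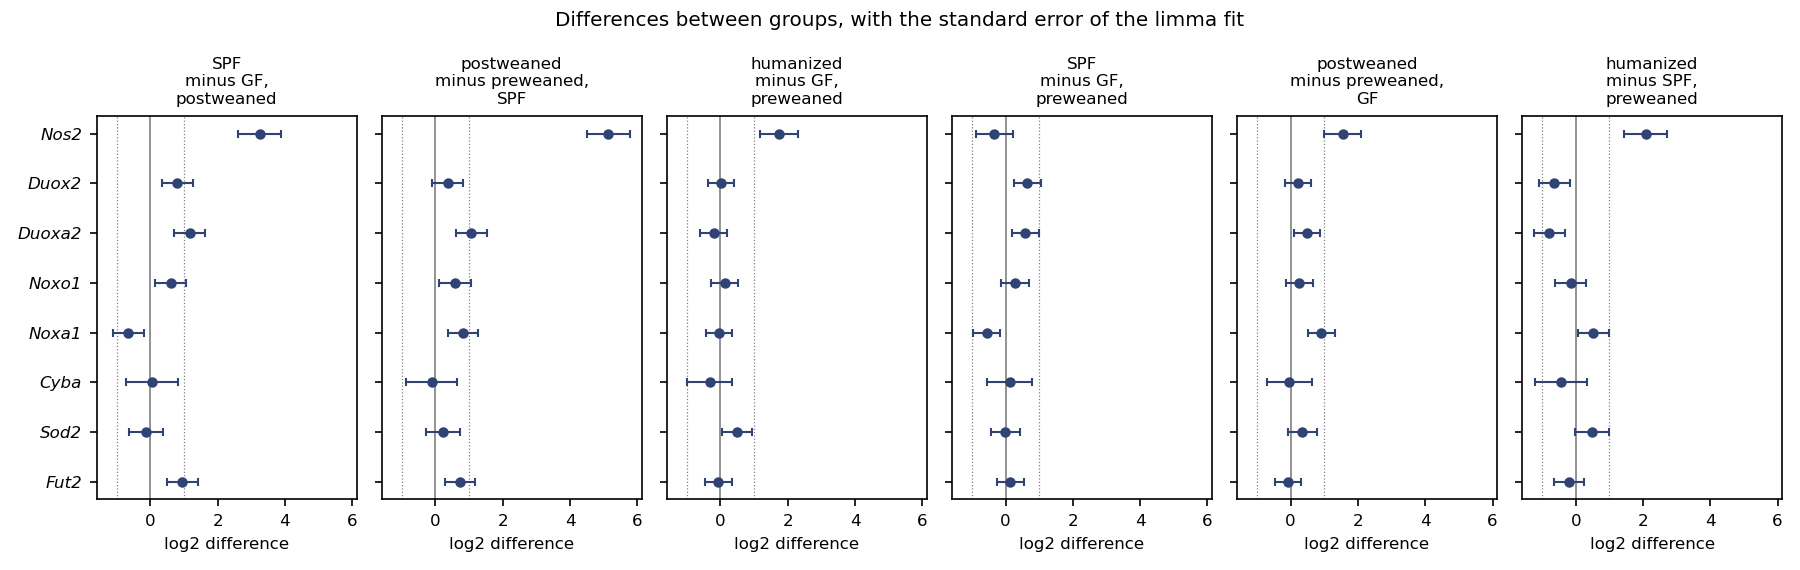
Log2 difference of each of the 8 genes in the 6 comparisons of groups, with bars for the SE from limma and dotted lines at 2-fold. Nos2 reaches 5.14 for weaning in SPF mice, and Cyba and Sod2 stay within 0.50 of 0 in all 6.

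After weaning, 2 of the 8 genes, Nos2 and Duoxa2, were 2-fold or more higher in SPF than in germ-free mice and 0 were lower, while 9.02% of all genes were that much higher, 6.37% that much lower and 15.4% that far apart either way. The median of the 8 differences was 0.70 against -0.02 over all genes. With an offset of 16 in place of 50 the count was 4, and with 100 it was 1. By limma 0 genes, 0%, were called at an adjusted p under 0.05, and 521 had an unadjusted p under 0.05.

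Before weaning, 0 of the 8 genes were 2-fold apart between SPF and germ-free mice, where 22.6% of all genes were (11.5% higher and 11.1% lower). The values ran from -0.56 for Noxa1 to 0.65 for Duox2 and 0.59 for Duoxa2, the last 2 with no detected array on either side. This comparison lies across the array sets, between which levels of Duox2 and Duoxa2 do not overlap. limma called 0 genes, 0%, with 1182 at an unadjusted p under 0.05.

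Weaning in SPF mice gave Nos2 and Duoxa2 as 2-fold or more higher, 2 of 8, against 10.5% of all genes, with 8.64% lower and 19.2% apart either way. Of the 8 differences, 7 were above 0, with Cyba at -0.11 and, from the authors' deposited value table, Sod2 at -0.26, and their median was 0.66 against -0.04 over all genes. In germ-free mice 1 of 8, Nos2, was 2-fold higher after weaning, against 11.6% of all genes higher, 12.7% lower and 24.3% apart either way. Duox2, Duoxa2 and Noxo1 had differences of 0.22, 0.48 and 0.25 here, across the array sets, the first pair with no detected array in either group. limma called 0 genes, 0%, in both, with unadjusted p under 0.05 for 627 in SPF and 927 in germ-free mice.

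The humanized sample differed by 2-fold from the germ-free preweaned samples in 1 of the 8 genes, Nos2, against 4.16% of all genes higher, 2.34% lower and 6.49% apart. The other 7 lay between -0.32 for Cyba and 0.49 for Sod2. Against SPF preweaned it differed in 1 of 8, again Nos2, against 15.3% higher, 14.6% lower and 29.8% apart, with Duoxa2 at -0.79 ± 0.46 and Duox2 at -0.64 ± 0.46, both with no detected array in either group. These comparisons share the humanized sample, and the latter lies across the array sets. limma called 0 genes, 0%, in both, with 70 and 1241 at an unadjusted p under 0.05. The humanized sample also differed in markers of its tissue. Of 7 tested distal ileum genes, Fabp6, Slc10a2 and Fgf15 were not above background in it, whereas 6 or 7 were in each other sample. Slc10a2 was also not above background in germ-free preweaned sample 1 (5.82) or SPF preweaned (6.09), below its 6.86 in the humanized sample. Only Fabp6 and Fgf15 were missing from the humanized sample alone. All 8 tested epithelial markers were above background in all 6 samples, with sums of 136192 to 261697.

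The difference between the weaning differences was 2-fold or more for 1 of the 8 genes, Nos2, against 34.4% of all genes (17.5% higher and 16.9% lower), and limma called 0 (0%; 771 at an unadjusted p under 0.05). A fit with 1 term for colonization and 1 for weaning used all 6 samples, with 3 residual degrees of freedom. For colonized minus germ-free it gave 1 of 8 at 2-fold or more, Nos2 at 1.56 ± 0.74, against 3.62% of genes (2.59% higher and 1.02% lower). It rests on both postweaned samples: without the germ-free or the SPF postweaned sample the count was 0. For postweaned minus preweaned it gave 1 of 8, Nos2 at 2.82 ± 0.78, against 15.4% of genes (7.49% higher and 7.89% lower), with all 8 values above 0, Cyba the lowest at 0.04, and Duoxa2 at 0.97 ± 0.41. Adjusted p for Nos2 was 0.9999 and 0.494, and limma called 0 genes, 0%, for either term, with 92 and 1180 at an unadjusted p under 0.05. An exact permutation test of the 3 colonized against the 3 germ-free samples, 2-sided, gave p = 0.4 for Nos2 and between 0.2 and 1 for the 8 genes, where 0.1 is the smallest p that 20 divisions allow. In 0 of the 8 genes were the colonized and germ-free samples apart without overlap, against 3.78% of all genes.

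The rest of each pathway was looked at through fixed lists, with 2-fold counts from single samples, since limma called 0 genes of any list in any comparison. Beside these counts, 9.02% of all genes were 2-fold higher and 6.37% lower in SPF than in germ-free mice after weaning, and 10.5% were higher and 8.64% lower for weaning in SPF mice. Of 16 genes of the NADPH and dual oxidase complexes, 9 were above background somewhere and tested, 5 of them from the 8. In SPF postweaned against germ-free postweaned 3 of 9 were higher, Duoxa2 among them, with a list median of 0.61. The 1 gene 2-fold lower, Nox4, was not above background in either sample. Rac2, the small GTPase of the blood cell oxidase, was at 11.09 in SPF postweaned and at 8.64 in germ-free postweaned, a difference of 2.45 ± 0.57. It was at 7.37 in SPF preweaned, where most arrays did not detect it, and weaning in SPF gave 3.73 ± 0.57. Ncf1, the p47phox organizer of the phagocyte oxidase, was above background in SPF postweaned (8.74) and in the humanized sample (8.58) and in no other. The humanized sample exceeded SPF preweaned in it by at least 2.27-fold. Nox4, an oxidase of stromal cells, was 11.49 and 8.08 in the germ-free preweaned pair, and its differences between groups were within that gap.

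Nitric oxide and arginine genes were counted in both directions: of 13 tested of 16, 2 were 2-fold higher and 3 lower in SPF than in germ-free mice after weaning, and 3 were higher and 3 lower after weaning in SPF, with medians of -0.07 and -0.16. Gch1, which makes the cofactor that nitric oxide synthases need, was 11.93 in SPF postweaned and 10.84 in germ-free postweaned, 1.08 ± 0.92 apart, which is within the gap between the germ-free preweaned samples. Nos1, the neuronal synthase, was at least 2.54-fold lower in SPF than in germ-free postweaned, at 6.11 and 8.09. Ddah2, an enzyme that removes inhibitors of these synthases, was at least 2.58-fold higher after than before weaning in SPF mice. Nos3 and Arg1 were detected on 0 of 21 arrays. Arg2, the mitochondrial arginase, was between 2.27 and 3.18 above the germ-free preweaned mean in germ-free postweaned, SPF preweaned and humanized samples, with an SE of 2.69 that reflects the gap within that pair.

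Among antioxidant enzymes, 19 of 22 tested, the counts of higher and lower genes were 1 and 2 between SPF and germ-free mice after weaning and 0 and 3 for weaning in SPF. Gpx3, a secreted glutathione peroxidase, was 15.81 in SPF preweaned and 10.90 in SPF postweaned, a difference of -4.92 ± 2.15, and weaning in germ-free mice gave -4.37 ± 1.86. Gclc, the catalytic subunit of the rate-limiting step in glutathione synthesis, was not above background in SPF preweaned. It was at least 5.72-fold lower there than in germ-free preweaned and at least 8.88-fold lower than in the humanized sample. Gclc was 9.68 and 10.15 in germ-free preweaned samples 1 and 2 and 10.55 in the humanized sample. It was 7.36 in germ-free postweaned, 6.84 in SPF preweaned and 7.76 in SPF postweaned, without overlap between the array sets. Gsr, glutathione reductase, was 2.69 ± 0.58 higher after weaning in germ-free mice, and its levels did not overlap between the array sets either. Set beside these, Sod2 differed by 0.49 at most.

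Of 17 fucosylation genes 13 were tested. In SPF against germ-free mice after weaning 0 were 2-fold higher and 1 was lower, Pofut1, an enzyme that fucosylates Notch, at -1.03 ± 1.21 and within the gap between the germ-free preweaned samples. Fut1, Fut7, Fut9 and Fut10 were detected on 0 of 21 arrays. Fut8, which adds core fucose to N-glycans, was 7.16 in SPF preweaned, 9.17 in SPF postweaned and 10.47 in the humanized sample. In the germ-free preweaned samples 1 and 2 it was 7.40 and 9.96. Its difference for weaning in SPF, 2.02 ± 1.46, lies within that gap, and humanized minus SPF preweaned, 3.31 ± 1.46, exceeds it. Fut4 was 12.08 in the humanized sample, 2.31 ± 1.83 above a germ-free preweaned pair that itself stood at 7.87 and 11.66. For Fpgt, of the fucose salvage route, SPF minus germ-free before weaning was -1.70 ± 0.59, and its levels did not overlap between the array sets.

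Cytokine and receptor genes known to act on these genes, 10 of 14 tested, had 2 higher and 1 lower in SPF than in germ-free mice after weaning. Il18, an epithelial cytokine, was 12.65 against 10.19, and Ifng, a T and NK cell cytokine that induces Nos2, was 7.85 against 9.48, a difference of -1.63 ± 0.58. Il1b was 1.48 ± 0.47 higher in the humanized than in the germ-free preweaned samples. Il17a and Il22ra1 were detected on 0 of 21 arrays.

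In the list of signalling genes, 10 of 12 tested, 4 were 2-fold higher and 0 lower in SPF than in germ-free mice after weaning (9.02% and 6.37% of all genes), with a median of 0.70 against -0.02 over all genes. Socs3, a feedback inhibitor of STAT3 signalling, was 13.48 in SPF postweaned, 11.53 in germ-free postweaned and 9.97 in SPF preweaned, differences of 1.94 ± 0.70 and 3.51 ± 0.70. Irf1, an interferon-responsive factor that binds the Nos2 promoter, was 11.56 in SPF postweaned, 11.55 in SPF preweaned, 10.51 in germ-free postweaned, 9.75 and 9.32 in germ-free preweaned samples 2 and 1, and 9.53 in the humanized sample. Nfkbiz, an NF-kB cofactor, was 1.69 ± 0.73 higher after weaning in germ-free mice. Nfkbia, the NF-kB inhibitor, was 13.65 in the humanized sample and 11.31 and 13.03 in germ-free preweaned samples 1 and 2, a difference of 1.48 ± 0.90 that lies within the gap of that pair. Stat3 was above background only in the humanized sample. Levels of Irf1, Nfkbiz and Stat3 did not overlap between the array sets, whereas those of Socs3 and Nfkbia did.

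**Figure D4:**
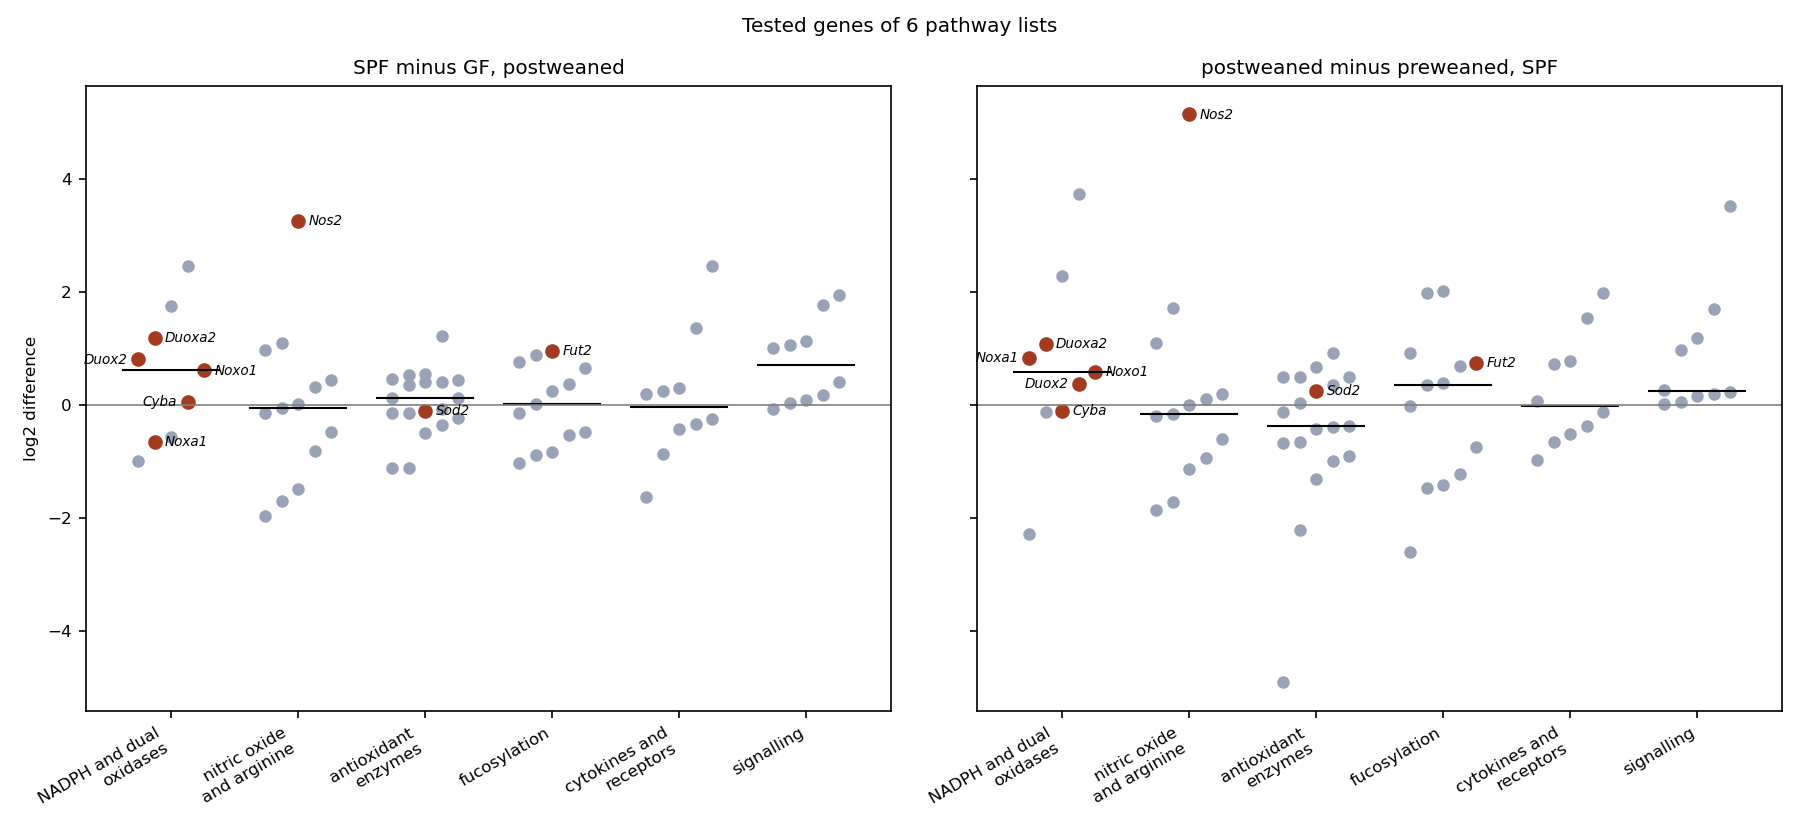
Log2 difference of each tested gene in 6 pathway lists, for SPF minus germ-free after weaning (left) and for weaning in SPF mice (right), with the 8 genes in red and named, other genes in grey and a bar at the list median. Nos2 is the highest point of its list in both panels, at 3.26 and 5.14, and Sod2 and Cyba lie near 0.

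The 8 genes did not share a single pattern. Over the 6 samples, Duoxa2 correlated at 0.95 with Noxo1 and at 0.92 with Fut2, and Noxo1 at 0.91 with Fut2. Nos2 correlated at 0.87 with Noxo1 and at 0.74 with Duoxa2. Noxa1 stayed below 0.48 with each other gene and Cyba was at -0.74 with Sod2. These are descriptions over 6 samples that share array sets. In all 6 samples 3 genes of the 8 were above background, Noxo1, Cyba and Sod2, against 53.5% of all genes.

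The genes most like each one over the 6 samples were named by the highest Pearson r. Each r is a description over 6 samples and takes no account of how far a gene varied. For Nos2 they were 4930415O20Rik at 0.99, Hyou1 at 0.99 and Muc4, a membrane mucin, at 0.98, with 47 genes above 0.95. Their levels ran only from 5.85 to 7.46, 6.35 to 6.98 and 5.84 to 7.63. The lowest detected signal was 6.75 in SPF postweaned and 7.26 to 7.96 in the other samples. Gdf2, at 5.94 to 6.89, and Olfr275, at 5.87 to 7.39, both named below, were also near it. For Duox2 they were Insc at 0.997 and Disp3 and Gdf2 at 0.995, with 251 genes above 0.95, and for Duoxa2 they were Cd37, Kmt2b and Olfr275 at 0.99, with 127. Noxo1 was nearest to Dennd4b, Stat4 and Aoc2, with 80 genes above 0.95, and Noxa1 to Cpne1, Cilk1 and Mvd, with 27. Fut2 was nearest to Ctla4, Rxfp1 and AU040320, with 86. Cyba was nearest to Pfdn6, Mthfsd and Rpl38, with 24, and Sod2 to Ybx3, Tars and Rbp7, with 7.

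Other cell types in the tissue differed between the same samples. The 7 goblet cell markers summed to 48112 in SPF preweaned and 223155 in SPF postweaned, and all 7 were 2-fold higher after weaning in SPF mice (10.5% of all genes). Suckling enterocyte markers, 8 of 10 tested, summed to 161496 and 10329 in these samples, and all 8 were 2-fold lower (8.64% of all genes). Their sum was 21882 in the humanized sample, near the 22379 of germ-free preweaned sample 2 and the 18054 of germ-free postweaned, although the humanized sample is labelled preweaned. Of the 7 Paneth cell markers listed 2 were tested, and their sum ran from 1061 in SPF preweaned to 12475 in germ-free preweaned sample 2. Distal ileum markers summed to between 50923 and 104637. The part of these shifts in the values of the 8 genes was not tested.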

How the data were processed

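Ileum RNA of 6 samples (2.5 µg, integrity number at least 8, per the labels) was measured on 21 one-colour arrays. The authors deposited raw probe intensities, whole numbers some of which are below 0, and for each a detection p-value, per the file headers. No label or header says how background was removed. A deposited value table of linear intensities equalled each sample's mean scanner value (median ratio 0.997 to 1.003) and was an alternative.

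Intensities were quantile-normalized over the arrays, set to 0 where negative, given an offset of 50, put on a log2 scale and averaged per sample. A probe was above background in a sample where its p-value was under 0.05 on most of its arrays, and a gene took its brightest such probe. Symbols were updated by a RefSeq table (GRCm38.p6), with 22553 of 26423 probes bearing 1 symbol. limma 3.58.1 in R 4.3.3 fitted 1 coefficient per group, or colonization plus weaning, over 12196 genes, with Benjamini-Hochberg adjustment. The fit was also run on simulated data that had the spread between arrays of a sample. That run cannot show how the fit does with the spread between samples. With 1 coefficient per group, p-values rest on the gap between the 2 germ-free preweaned samples (1 residual degree of freedom), moderated across genes. With colonization plus weaning (3 residual degrees of freedom) they also take in spread between other samples. Sequences are RefSeq's, and the table held 6 of the 8 genes. The genes and lists were chosen with earlier results of these data known. The named genes are the 8, the non-member of each pathway list with the largest difference of 2-fold or more in each direction per comparison, and the 3 most correlated genes for each of the 8.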

Additional observations from a re-analysis of the deposited data

How the results depend on the processing

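Across 18 alternatives, all planned with the design, 962 of 1018 recomputed differences of the 8 genes kept their sign. These include 138 of 138 that were 2-fold or more as reported, and 0 reversed among those. All 138 are of Nos2 or Duoxa2, recomputed from the same 6 samples, so they are not independent. Of 247 recomputed counts 216 stayed within 1.5 times. Counts of the 8 genes at 2-fold or more moved as follows. With an offset of 16 they were 4 for SPF minus germ-free after weaning, 1 before weaning, 2 for weaning in germ-free mice, 3 for humanized minus SPF and 2 for weaning in the fit of all samples. With an offset of 100 they were 1 for SPF minus germ-free after weaning and 1 for weaning in SPF mice. With 75th percentile scaling they were 2 for weaning in germ-free mice and 2 for weaning over all samples. Where only genes above background in all 6 samples were kept (3 of the 8, without Nos2), the count was 0 in all comparisons. From the authors' value table, which is not scaled between samples and moves the median gene by 0.48 for SPF minus germ-free after weaning, 0.80 before weaning, -0.38 for weaning in SPF mice and -0.67 for humanized minus SPF, they were 4, 3, 1 and 4 in those comparisons, and 2 for weaning over all samples. That table also took the share of 2-fold differences that were higher from 58.6% to 92.1% for SPF minus germ-free after weaning, where 75th percentile scaling gave 41.4%. With the first 3 arrays of germ-free preweaned sample 1 alone the count for weaning over all samples was 2. Leaving out 1 sample at a time gave 1 to 2 for weaning and 0 to 1 for colonization over all samples. In that fit limma called 0 genes for weaning, 133 with the array series as a block (germ-free preweaned sample 2 and the humanized sample against the rest, by array numbering and annotation version), and 0 to 77 when a sample was left out, the 77 without SPF preweaned; the cause was not tested. For Nos2, SPF minus germ-free after weaning ranged from 2.98 to 3.66 and weaning in SPF mice from 4.30 to 6.30; for Duoxa2 they ranged from 0.91 to 1.63 and 0.79 to 1.32. Without a germ-free preweaned sample the group fit has no residual degrees of freedom, so those values have no test. No paired analysis was possible because the labels give no replicate numbers that the groups share. Signal near background limits Duox2, Duoxa2, Noxa1 and Fut2: differences there are compressed by the offset.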
